A study of Mus musculus with 38 samples.

Results

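ChIP-seq was used to map where the acetyltransferase p300 and the Mediator subunit Med12 were found on chromatin in Cas9-LP, a line of mouse lymphoid progenitors (LP) from fetal liver that lacks Ebf1 and carries a Cas9 knock-in at Rosa26. All peaks of the LP p300 list and of the LP Med12 list were taken, 66202 of the 359759 peaks in the 17 lists of the series. Peaks of the 2 lists that shared at least 1 bp were called shared, and the others were called p300 alone or Med12 alone. LP cells were grown on OP9 stromal cells without a Notch ligand. The Phase 1 cells used beside them were the same line after 2 days on OP9-DLL4, stromal cells that display the ligand DLL4 to Notch. Another Phase 1 list for Med12 came from cells given a control guide RNA, which the paper delivers by retrovirus. All of these cells therefore lacked Ebf1 and carried Cas9, and all had been fixed with disuccinimidyl glutarate and then formaldehyde. Because the line cannot make the B-lineage factor Ebf1, it stands for a progenitor held before B-lineage entry. Each list combined 2 replicates, so no value per replicate was used, and the intervals and tests below cover the counting of peaks only. They carry no error between cultures.

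p300 and its relative CBP acetylate histones and transcription factors and are recruited by factors bound at enhancers and promoters. Mediator joins such factors to RNA polymerase II, and Med12 belongs to its kinase module, which also holds Cdk8 or Cdk19 and cyclin C. Both proteins lack sequence-specific DNA binding of their own that would place them, and both are widely used to map active enhancers. RUNX1 binds DNA with Cbfb and is needed for blood stem cells and early T cells. CTCF binds a long motif and marks chromatin loop ends and insulators.

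The p300 list held 36182 peaks of 329 bp and the Med12 list held 30020 peaks of 355 bp. Of the p300 peaks, 28234 had a Med12 peak (78.0%, 95% Wilson interval 77.6 to 78.5%) and 7948 stood alone (22.0%). The same 28234 pairs made up 94.1% of the Med12 list (93.8 to 94.3%), which left 1786 Med12 peaks alone (5.95%). No peak overlapped more than 1 peak of the other list. The centres of shared pairs lay a median of 25 bp apart, and 26942 of the 28234 pairs had centres within 100 bp of each other. Because the pairs were the same in each list, both shares could differ only through the lengths of the lists. With the p300 list cut to its 30020 highest-scored peaks they were equal by construction, at 86.9%.

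All 9 lymphoid progenitor genes checked (Flt3, Il7r, Kit, Cd34, Spi1, Ikzf1, Runx1, Lmo2 and Mef2c) were nearest to at least 1 peak of each list. Of 14 stromal genes, which would mark the OP9 layer, 11 were nearest to no p300 or Med12 peak, among them Col1a2, Col3a1, Pdgfra and Cxcl12. The exceptions were Pdgfrb, Col1a1 and Tnc, with 5 p300 and 3 Med12 peaks in all. No share over all annotated genes was computed beside these counts. They are a description and cannot tell whether either gene list differs from genes at large.

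The sequences below are the 200 bp around p300 or Med12 peak centres, from the plus strand of GRCm38, the build called mm10 in the files. Capitals mark 3 kinds of strings found on either strand: the RUNX strings TGTGGTT and TGCGGTT, the E-box strings CAGCTG and CAGGTG that are read by basic helix-loop-helix factors, and the PU.1 string GAGGAAGT. The first is the shared site with the best mean rank in both lists. It lay between genes, 26.4 kb downstream of the start of Dad1, a subunit of the oligosaccharyltransferase (chr14:54227460-54227659). Dad1 has the nearest annotated start, and which gene this site acts on was not tested. The RUNX and E-box strings of the site overlapped.
Dad1, shared: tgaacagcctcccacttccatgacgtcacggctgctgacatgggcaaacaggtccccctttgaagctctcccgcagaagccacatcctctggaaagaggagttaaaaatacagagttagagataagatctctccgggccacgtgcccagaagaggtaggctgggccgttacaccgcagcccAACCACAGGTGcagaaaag

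The next 3 were p300 alone. The site in an intron of Mnd1, a gene of meiotic recombination (chr3:84154809-84155008), had the highest score of the p300-alone peaks outside promoters. It lay only 0.878 kb from the start of Mnd1, and the centre of a shared Med12 peak was 0.837 kb away. The site in an intron of Sipa1l1, a GTPase-activating protein of Rap (chr12:82230239-82230438), and the site 7.49 kb upstream of Sirt4, a mitochondrial sirtuin (chr5:115491877-115492076), were chosen after the fact to show the E-box. Among the peaks open to printing, they are the highest-scored p300-alone peaks outside promoters that held that string and had no Med12 centre within 1 kb. Simple repeats, satellites, rRNA, windows touching an annotated UTR and 1 chromosome were left out of all printed sequences.
Mnd1, p300 alone: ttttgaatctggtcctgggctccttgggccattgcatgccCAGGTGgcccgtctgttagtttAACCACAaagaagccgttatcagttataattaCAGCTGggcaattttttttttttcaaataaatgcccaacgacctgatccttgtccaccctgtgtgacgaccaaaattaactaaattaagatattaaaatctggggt
Sipa1l1, p300 alone: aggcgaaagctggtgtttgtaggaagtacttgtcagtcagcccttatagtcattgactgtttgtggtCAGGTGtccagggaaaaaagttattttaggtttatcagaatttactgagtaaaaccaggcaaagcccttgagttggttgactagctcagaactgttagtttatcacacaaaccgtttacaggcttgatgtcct
Sirt4, p300 alone: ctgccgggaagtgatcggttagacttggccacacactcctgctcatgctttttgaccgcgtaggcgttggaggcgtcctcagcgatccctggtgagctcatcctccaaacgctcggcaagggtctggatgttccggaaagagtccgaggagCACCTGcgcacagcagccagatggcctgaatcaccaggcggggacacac

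The last 3 were Med12 alone. The site at Rnu11, the gene of the U11 RNA of the minor spliceosome (chr4:132269973-132270172), had the highest score outside promoters. It was annotated as a transcript end but lay only 0.114 kb from the start of Rnu11, and a p300 centre was 0.413 kb away. The site 1.58 kb upstream of Sf3b1, a splicing factor (chr1:55028954-55029153), and the site 22.7 kb upstream of Zfhx3, a homeodomain zinc finger factor (chr8:108691883-108692082), were chosen in the same way to show the PU.1 string.
Rnu11, Med12 alone: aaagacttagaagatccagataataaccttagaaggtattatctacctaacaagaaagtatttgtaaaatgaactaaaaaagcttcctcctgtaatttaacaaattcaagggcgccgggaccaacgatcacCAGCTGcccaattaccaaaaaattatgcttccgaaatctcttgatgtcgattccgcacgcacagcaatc
Sf3b1, Med12 alone: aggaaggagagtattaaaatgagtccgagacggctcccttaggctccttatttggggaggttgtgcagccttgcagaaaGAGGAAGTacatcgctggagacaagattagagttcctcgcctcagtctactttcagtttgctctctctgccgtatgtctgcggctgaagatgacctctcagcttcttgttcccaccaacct
Zfhx3, Med12 alone: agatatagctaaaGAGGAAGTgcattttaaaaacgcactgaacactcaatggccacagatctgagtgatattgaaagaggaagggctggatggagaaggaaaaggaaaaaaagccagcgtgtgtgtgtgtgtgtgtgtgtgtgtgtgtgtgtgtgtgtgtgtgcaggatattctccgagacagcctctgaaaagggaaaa

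To ask how the overlap related to peak strength, each list was cut into 5 classes of equal size by its own peak score. Scores of the 2 lists are not on a scale that is known to be common, so ranks within a list were used. The share of p300 peaks with Med12 rose from 38.0% in the lowest class to 72.1%, 88.8%, 94.5% and 96.7% in the highest. For Med12 peaks it was 82.5% in the lowest class and 94.6%, 97.1%, 98.2% and 98.0% in the others. The median score of p300-alone peaks was 22.6 against 70.7 for shared p300 peaks, and that of Med12-alone peaks was 21.5 against 51.2 for shared Med12 peaks. No peak below a score of 15 was listed, so a site called alone can hold the other factor under that limit.

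Separate peaks were not all weak. Of the highest p300 class, 236 peaks had no Med12 peak, and of the highest Med12 class 122 had no p300 peak. At shared sites the ranks in both lists followed each other, with a Spearman correlation of 0.900 over the 28234 pairs, 0.843 at promoters and 0.889 elsewhere. Sites were counted across the genome and are not independent replicates, so this is given as a description.

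Shared and separate peaks differed in where they lay. HOMER, the program that annotated the lists, placed 30.5% of shared p300 peaks at promoters but 8.68% of p300-alone peaks (8.08 to 9.32%), an odds ratio of 4.62. Of Med12-alone peaks 15.6% were at promoters (14.0 to 17.3%), against 30.4% of shared Med12 peaks (odds ratio 2.37, adjusted exact p = 1.35e-44). Odds ratios are from two-sided Fisher's exact tests on peak counts, adjusted over the 15 tests by the Benjamini-Hochberg method, and for the p300 list p was written as 0 because it was too small to represent. Introns held 44.0% of p300-alone and 41.7% of Med12-alone peaks, against 33.3% of shared p300 peaks. Matched on score class, the odds ratio within the p300 list was 1.73 and that within the Med12 list was 0.972, which did not pass the threshold, so the promoter difference of the Med12 list was not seen among peaks of like score.

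**Figure D1:**
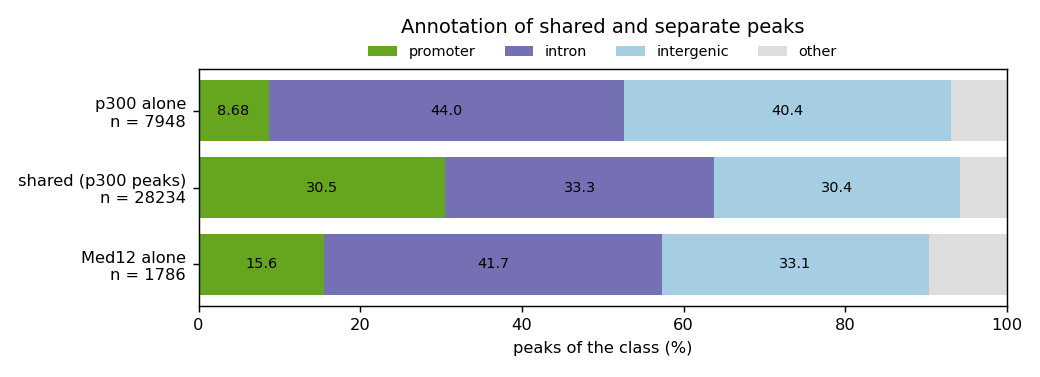
Share of peaks (%, x axis) annotated as promoter, intron, intergenic or other, for p300-alone, shared and Med12-alone peaks, with the number of peaks under each name. Promoters made up 30.5% of shared peaks, 15.6% of Med12-alone and 8.68% of p300-alone peaks.

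Set against each other, p300-alone peaks were less often at promoters than Med12-alone peaks (odds ratio 0.516, adjusted exact p = 1.62e-16) and more often over 10 kb from a start (61.8% against 54.8%, odds ratio 1.34, adjusted exact p = 6.73e-08). Both directions turned when the p300 list was shortened to its 30020 highest-scored peaks, the length of the Med12 list. Each separate class then held 3928 peaks. Med12 peaks whose p300 partner had been cut now counted as alone, while the full lists left 1786 Med12 peaks alone. Then 12.3% of p300-alone and 10.9% of Med12-alone peaks were at promoters (odds ratio 1.15, adjusted exact p = 0.0783), and 51.7% against 62.8% lay over 10 kb from a start (odds ratio 0.635, adjusted exact p = 6.27e-23). The order of the 2 separate classes by position thus depended on how deep into the p300 list the comparison went, and with it on which Med12 peaks counted as alone.

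RUNX1 separated shared from separate sites more sharply than position did. Of shared p300 peaks 93.0% had an LP RUNX1 peak (26257 of 28234), against 35.3% of p300-alone peaks (34.3 to 36.4%), an odds ratio of 24.3. Of shared Med12 peaks 93.1% had one, against 44.6% of Med12-alone peaks (42.3 to 46.9%), an odds ratio of 16.9. Matched on score class the odds ratios were 8.89 and 7.74. In these 4 comparisons p was again written as 0. Outside promoters the shares were 91.1% at shared p300 peaks and 34.8% at p300-alone peaks.

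p300-alone peaks had a RUNX1 peak less often than Med12-alone peaks (odds ratio 0.678, adjusted exact p = 6.32e-13), and this kept its direction and its side of the threshold in each of the 11 alternatives, with odds ratios from 0.416 to 0.808. The gap was widest in the highest score class. In the lowest class 30.6% of p300-alone and 33.7% of Med12-alone peaks had RUNX1. In the highest it was 35.2% of p300-alone peaks (29.4 to 41.5%) against 77.9% of Med12-alone peaks (69.7 to 84.3%). Shared peaks of the highest p300 class had RUNX1 at 99.1%. In the highest class 32.6% of p300-alone and 68.9% of Med12-alone peaks were at promoters. Outside promoters RUNX1 was at 33.3% (53 of 159) and 65.8% (25 of 38). A p300 peak of the highest class with no listed Med12 peak was thus usually listed without RUNX1. With both lists cut at a score of 30, weaker peaks of the other factor no longer counted. RUNX1 was then at 69.8% of p300-alone and 75.6% of Med12-alone peaks.

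**Figure D2:**
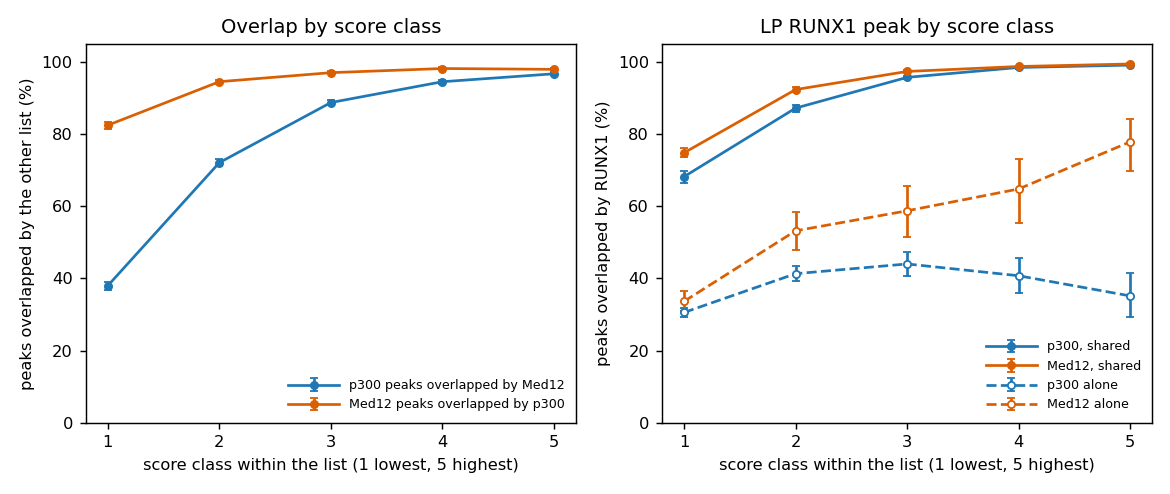
Left, share of p300 and Med12 peaks (%, y axis) overlapped by the other list, by score class within the list (x axis). Right, share with an LP RUNX1 peak for shared peaks (filled points, solid lines) and separate peaks (open points, dashed lines). Bars are 95% Wilson intervals. RUNX1 was at 35.2% of p300-alone and 77.9% of Med12-alone peaks of the highest class.

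CTCF peaks were spread almost evenly. They overlapped 23.3% of shared p300 peaks and 22.9% of p300-alone peaks (odds ratio 1.02, 95% interval 0.959 to 1.08, adjusted exact p = 0.573). They overlapped 23.5% of shared Med12 peaks and 25.3% of Med12-alone peaks (odds ratio 0.909, interval 0.814 to 1.02, adjusted exact p = 0.110). Between the separate classes the odds ratio was 0.882 (adjusted exact p = 0.0478), a call that was lost in 4 alternatives and turned in 1. The evenness changed with the processing, and in both directions for the p300 list. At a minimum score of 30 the odds ratio of shared against p300-alone peaks was 1.38 (adjusted exact p = 2.73e-18), in 200-bp windows it was 0.911 (adjusted exact p = 0.00330), and for sites alone in both stages it was 0.704 (adjusted exact p = 4.95e-24). For the Med12 list it was 0.806 when matched on score. With promoter peaks left out, CTCF was at 20.1% of shared and 23.0% of p300-alone peaks (odds ratio 0.844, adjusted exact p = 4.67e-07), and at 20.3% of shared and 27.6% of Med12-alone peaks (odds ratio 0.666, adjusted exact p = 1.08e-11). RUNX1 and CTCF together were at 21.6% of shared p300 peaks, 7.45% of p300-alone peaks and 215 of the 1786 Med12-alone peaks. Neither was at 49.2% of p300-alone and 42.2% of Med12-alone peaks, against 5.36% of shared p300 peaks. The list for Notch1-IC, the intracellular domain that acts in the nucleus, held 1585 peaks in LP cells. These were at 4.96% of shared p300 peaks, 0.340% of p300-alone and 0.504% of Med12-alone peaks. The LP cells had no Notch ligand, and the paper reports fewer reproducible Notch1-IC peaks after Notch stimulation. Whether the LP list shows Notch1-IC binding was not tested.

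Windows of 200 bp around the peak centres were searched for consensus strings on both strands, and equally long windows shifted by 2 kb in both directions gave the background. The RUNX strings were in 19.1% of p300-alone and 15.4% of Med12-alone windows (odds ratio 1.29, adjusted exact p = 3.55e-04) and in 19.1% of windows at shared p300 peaks, against 5.47% of the flanks of p300-alone peaks. With lists of equal length the shares were 17.8% and 18.0% (odds ratio 0.986, adjusted exact p = 0.872), so this call was lost. The equal share at p300-alone and shared p300 peaks did not hold outside promoters. There the RUNX strings were in 20.1% of p300-alone windows (19.2 to 21.0%). They were in 25.2% (24.6 to 25.8%) at shared sites of like rank, those whose score classes differed by less than 2 between the lists. The PU.1 string, read by the ETS-family factor encoded by Spi1, was in 6.68% of p300-alone and 11.5% of Med12-alone windows (odds ratio 0.549, adjusted exact p = 4.04e-11; flanks of p300-alone peaks 1.19%). It kept its direction and call in each of the 10 alternatives, with odds ratios from 0.434 to 0.726. The excess lay in the lower score classes, with 13.3% of Med12-alone against 7.58% of p300-alone windows in the lowest class, and was turned in the highest, with 2.46% (3 of 122) against 5.09% (12 of 236). Shared p300 windows held it in 9.51%, and those of the lowest p300 class in 13.8%, close to the Med12-alone share of that class. Outside promoters it was in 12.6% of the windows of these shared sites of like rank and in 7.07% of p300-alone windows. The string was thus not particular to Med12-alone sites, and p300-alone sites held it less often than shared ones in these comparisons. The Sf3b1 and Zfhx3 windows printed above are Med12-alone windows that held it.

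The E-box strings went the other way. This was noticed after the values were seen and is given as a description, with intervals and no test. An E-box string was in 42.3% of p300-alone windows (41.2 to 43.4%), in 34.1% of shared p300 windows (33.5 to 34.7%) and in 25.6% of Med12-alone windows (23.6 to 27.7%), while the flanks of p300-alone peaks held it in 23.3%. Outside promoters the shares were 43.2%, 39.6% and 26.7%, so the Med12-alone share was close to the 23.9% of its own flanks. CAGCTG was in 25.4% of p300-alone and 14.7% of Med12-alone windows, and CAGGTG in 23.2% and 13.5%. With lists of equal length an E-box string was in 44.1% of p300-alone and 27.5% of Med12-alone windows. Among separate peaks without RUNX1 the shares were 43.5% and 24.7%, and among those with RUNX1 40.0% and 26.8%. The median GC content of the windows was 50.5% for p300-alone and 49.5% for Med12-alone peaks. The string of the GATA factors, AGATAA, was in 7.44% of p300-alone and 7.01% of Med12-alone windows. The AP-1 strings, TGACTCA or TGAGTCA, were in 7.38% and 5.72%.

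**Figure D3:**
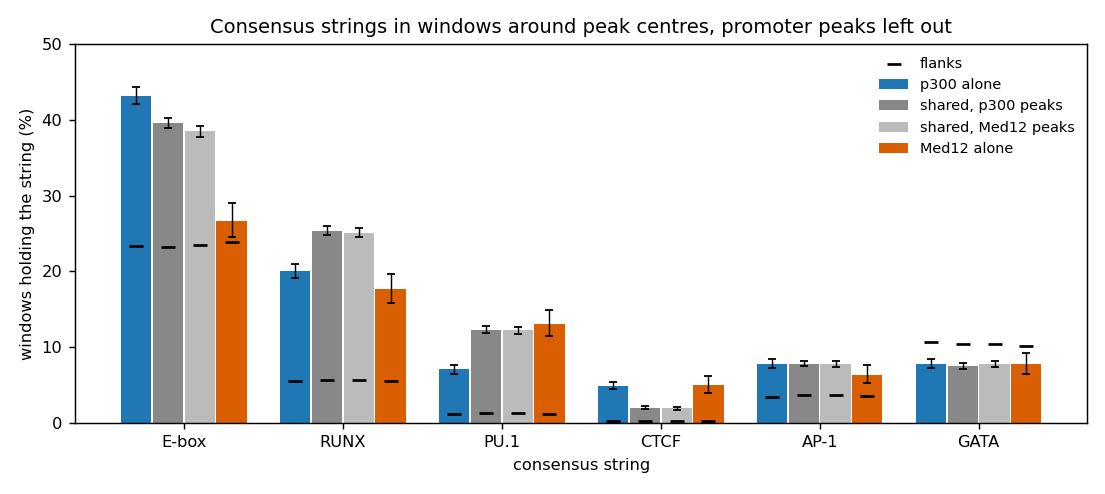
Share of 200-bp windows (%, y axis) that held each consensus string on either strand, with promoter peaks left out, for p300-alone, shared and Med12-alone peaks. Bars carry 95% Wilson intervals, and black dashes mark the windows shifted by 2 kb. E-box strings were in 43.2% of p300-alone and 26.7% of Med12-alone windows.

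The CTCF consensus, a degenerate string searched by its standard core, was in 4.66% of p300-alone and 4.32% of Med12-alone windows (odds ratio 1.08, interval 0.842 to 1.39, adjusted exact p = 0.573) but in 1.59% of shared p300 windows (1.45 to 1.75%). Its share in the flanks of p300-alone peaks was 0.164%. Over all peaks, CTCF peaks were thus about as frequent at shared as at separate sites, while the CTCF string near the centre was more frequent at separate sites. With promoter peaks left out, CTCF peaks were more frequent at separate sites too. The odds ratios of shared against separate peaks were then 0.844 in the p300 list and 0.666 in the Med12 list. The difference in the string was seen after the fact and was not tested.

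The same contrast was looked for among shared sites by taking those whose score class differed by at least 2 between the lists. p300 ranked higher at 1280 sites and Med12 ranked higher at 111. Of the first, 10.1% were at promoters (8.55 to 11.9%), and of the second 61.3% (52.0 to 69.8%). Both had RUNX1 at nearly all sites, 93.5% and 95.5%. E-box strings were in 48.3% of the windows where p300 ranked higher (45.5 to 51.0%) and in 22.5% where Med12 ranked higher (15.8 to 31.1%). Outside promoters they were in 50.4% of 1151 and in 27.9% of 43 windows. The PU.1 string was in 7.27% of all windows where p300 ranked higher (5.97 to 8.82%) and in 9.91% where Med12 did (11 of 111, 5.62 to 16.9%), with overlapping intervals. Outside promoters it was in 7.82% (6.41 to 9.51%) and 23.3% (10 of 43, 13.2 to 37.7%). Where Med12 ranked higher, 47.7% of windows held CCAAT and 43.2% held the GC box GGGCGG, strings common in promoters, against 17.8% and 12.7% where p300 ranked higher. The E-box thus leaned toward p300 at sites that both lists held. Between these 2 groups the PU.1 string leaned toward Med12 only outside promoters, on 10 windows. At the 26843 shared sites of like rank it was in 9.61% of windows (9.27 to 9.97%), and outside promoters in 12.6% (12.1 to 13.0%). It was thus less frequent where p300 ranked higher than at sites of like rank. These differences were not tested.

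The highest-scored separate peaks often had the other factor next to them without overlap. A Med12 centre lay within 1 kb of 51.3% of p300-alone peaks in the highest class (121 of 236) but of 2.21% in the lowest (99 of 4486). A p300 centre lay within 1 kb of 73.8% of Med12-alone peaks in the highest class (90 of 122) and of 5.99% in the lowest (63 of 1052). In 310 cases a p300-alone and a Med12-alone peak were each other's neighbours within 1 kb, with a median of 520 bp between their centres. At 135 of these pairs both centres were within 2 kb of the start of the same gene. The Med12 centre was the nearer to the start in 83 (61.5%), with a median distance of 150 bp against 389 bp for p300. p300 lay downstream of Med12 in 70 of the 135 (51.9%), so neither order along the gene prevailed. RUNX1 overlapped the Med12 peak in 65.2% of the 310 pairs and the p300 peak in 33.2%, and both peaks in 6.77%.

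**Figure D4:**
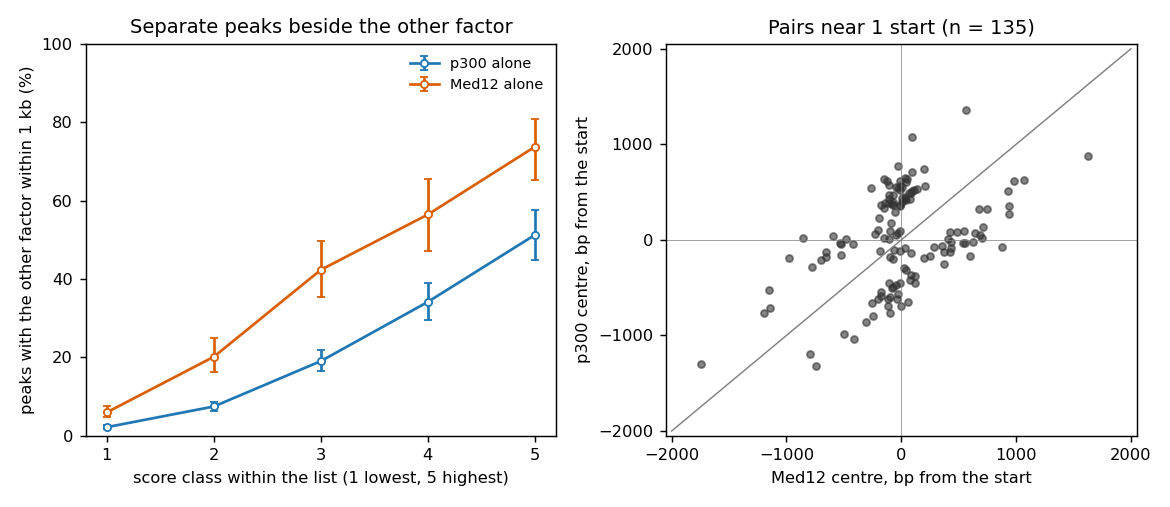
Left, share of separate peaks (%, y axis) with a centre of the other factor within 1 kb, by score class (x axis), with 95% Wilson intervals. Right, distance in bp of the p300 centre (y axis) and the Med12 centre (x axis) from the start of the gene for the 135 pairs near 1 start, with the diagonal where they would coincide. The share reached 51.3% for p300-alone and 73.8% for Med12-alone peaks of the highest class.

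The strongest pair was at Hmga1, which encodes an architectural chromatin protein. Its p300 peak ranked 69 of 36182 with its centre 528 bp before the start, and its Med12 peak ranked 146 of 30020 with its centre 1156 bp before the start. The Med12 peak had RUNX1 and the p300 peak did not. At Ddx5, an RNA helicase, p300 (rank 260) was centred 101 bp after the start with RUNX1, and Med12 (rank 67) 205 bp before it without RUNX1. At Luc7l2, a splicing factor, p300 (rank 268) was centred 55 bp after the start and Med12 (rank 452) 684 bp after it. At Yy1, a zinc finger factor, p300 (rank 664) was centred 1036 bp and Med12 (rank 410) 416 bp before the start. The Med12-alone peak with the highest score of all belonged to such a pair, at Rfx1, a winged-helix factor, where Med12 (rank 3) was centred 103 bp before and p300 (rank 4467) 389 bp after the start. These are places where both factors were listed at the same gene. With separate peaks restricted to those without the other factor within 1 kb, 7286 p300-alone and 1429 Med12-alone windows remained for the string searches, and the odds ratio of RUNX1 overlap between the separate classes was 0.808 (adjusted exact p = 7.11e-04).

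Among peaks outside promoters, the best separate p300 peaks after Mnd1 were 1.25 kb upstream of Neat1, a nuclear long noncoding RNA, and 1.42 kb upstream of Mir142, a microRNA gene of blood cells. Both lacked RUNX1 and CTCF and had a p300 but no Med12 peak in Phase 1. The Neat1 site was 1.00 kb and the Mir142 site 5.77 kb from the nearest Med12 centre. The best separate Med12 peaks after Rnu11 were at Hmga1, described above, and 7.47 kb upstream of Kif2c, a kinesin that shortens microtubules, where the p300 centre was 354 bp away. Another shared site of high mean rank in both lists was in an intron of Flt3, the receptor for Flt3 ligand, 33.9 kb from the start. It ranked 4 in the p300 list and 20 in the Med12 list, with centres 3 bp apart.

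To ask what became of these sites once Notch signaling began, LP peaks were compared with the Phase 1 lists, which held 49116 p300 and 39132 Med12 peaks. Of shared sites 85.5% had a Phase 1 p300 peak, against 57.1% of p300-alone sites (56.0 to 58.2%), an odds ratio of 4.44 with p too small to represent. Of shared sites 82.9% had a Phase 1 Med12 peak, against 43.3% of Med12-alone sites (41.0 to 45.6%), an odds ratio of 6.34 (adjusted exact p = 5.97e-286). Matched on score class the odds ratios were 1.54 and 3.07, so much of the contrast in the p300 list went with score.

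Many sites alone in LP were not alone in Phase 1. Of the p300-alone sites 36.9% had a Phase 1 Med12 peak (35.9 to 38.0%), nearly all together with p300 (34.8%), while 22.4% kept p300 without Med12 and 40.7% had neither. Of the Med12-alone sites 25.8% had a Phase 1 p300 peak, 21.1% kept Med12 without p300 and 53.1% had neither. p300-alone sites with LP RUNX1 had Phase 1 Med12 at 48.9% (47.1 to 50.8%), and those without it at 30.3% (29.1 to 31.6%). A separate Phase 1 Med12 experiment, in cells with a control guide RNA, gave a list of 19053 peaks, and the shares were much lower in it. It held a peak at 9.51% of p300-alone sites (8.89 to 10.2%), 18.1% of Med12-alone sites (16.4 to 20.0%) and 58.7% of shared p300 peaks. The Phase 1 lists used above were longer than the LP lists, this one was shorter, and how far length moves these shares was not tested.

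Taken by nearest gene, 14804 genes had at least 1 peak. A p300 promoter peak was listed for 9031 genes and a Med12 promoter peak for 8625, and 8048 genes had both. At 8681 genes each p300 and Med12 peak was shared. Another 1214 genes had p300 peaks that were all alone and no Med12 peak, and 387 genes had Med12 peaks and no p300 peak. Genes were then ranked by the count of separate peaks, not by their share. Over all peaks 22.0% of p300 and 5.95% of Med12 peaks were alone. The gene with most p300-alone peaks was Runx1, with 14 of 36 p300 peaks alone. Foxp1, a forkhead factor, had 11 of 28 alone, Irf8, a myeloid and dendritic cell factor, had 11 of 27, and Dad1 had 10 of 29. Bcor, a corepressor, and Klf13, a Krüppel-like factor, had 9 alone, as did Gm17746, Klhl25 and Sipa1l1. No gene had more than 3 Med12-alone peaks, and 12 genes, among them Rreb1, Rbms1 and Firre, shared that number.

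Gene lists were read against the shares over all peaks, 22.0% alone for p300 and 5.95% for Med12. Of 153 p300 peaks at stem and progenitor regulators 43 were alone (28.1%, 21.6 to 35.7%), and of 110 at T-lineage genes 32 were alone (29.1%, 21.4 to 38.2%). B-lineage genes had 14 of 46 alone (30.4%), myeloid genes 19 of 62 (30.6%) and innate lymphoid regulators 7 of 30 (23.3%). Each of these intervals held the share of all peaks, so none stood apart beyond counting. The 9 lymphoid progenitor markers had 27 of 79 alone (34.2%, 24.7 to 45.2%), and without Runx1 13 of 43 (30.2%, 18.6 to 45.1%), so the lower bound cleared the background with Runx1 in the list and not without it. Cytoplasmic ribosomal protein genes had 23 of 152 alone (15.1%, 10.3 to 21.7%), just under the share of all peaks. At 64 of these genes both factors had a promoter peak, and the p300 peaks of the list had a median score percentile of 69.1. The comparison was not matched on position or score. Med12-alone peaks were few in each list, 6 of 116 at stem and progenitor regulators, 4 of 81 at T-lineage genes, 1 of 33 at B-lineage genes, 1 of 44 at myeloid genes, 0 of 23 at innate lymphoid regulators and 4 of 134 at ribosomal protein genes.

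**Figure D5:**
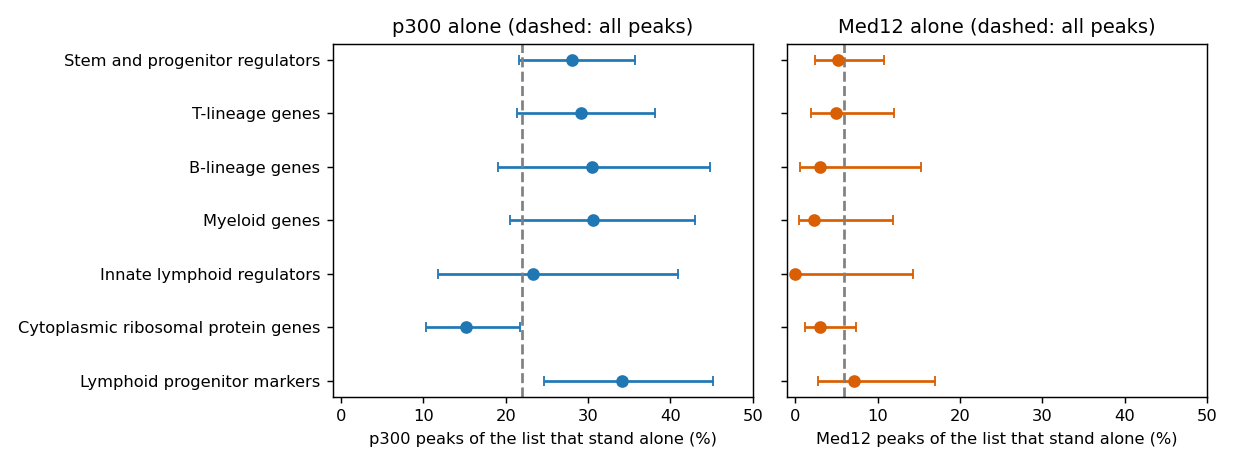
Share of p300 peaks (left) and Med12 peaks (right) that stood alone (%, x axis) for peaks nearest to the genes of each list, with 95% Wilson intervals. Dashed lines mark the share over all peaks, 22.0% and 5.95%. For p300 the intervals of the ribosomal protein genes and the lymphoid progenitor markers miss the line, and the other intervals cross it.

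Within the stem and progenitor list, Mef2c, a MADS-box factor, had 12 shared sites and 2 p300-alone sites. Erg, an ETS factor, had 11 shared and 5 p300-alone sites, and Runx2 had 10 shared, 3 p300-alone and 2 Med12-alone sites. In the T-lineage list Ets1 had 6 shared and 6 p300-alone sites, Tox 6 shared, 4 p300-alone and 1 Med12-alone, and Lef1, a partner of β-catenin, 7 shared and 3 p300-alone. Thy1, a surface protein of T cells, had 8 sites, and each was shared. Zap70, a kinase of T cell receptor signaling, had 7, and each was shared. No peak of either list was nearest to Hoxa9, Tal1, Dtx1, Cd79a, Vpreb1 or Ikzf3.

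Single loci showed how the classes lay side by side. At Flt3 the 3 sites were all shared, in introns 33.9 kb and 7.65 kb from the start and just after it, with RUNX1 and with both Phase 1 factors. At Spi1, which encodes PU.1, the promoter held 1 shared site with RUNX1 and CTCF. At Hes1, a repressor induced by Notch, 6 sites were shared, from 1.08 kb upstream to 95.3 kb downstream of the start, and each had RUNX1 and both Phase 1 factors. At Id2, an inhibitor of E proteins, the 3 sites were shared.

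Gata3, a regulator of T-cell specification, had the most p300-alone sites of these loci. Its 5 shared sites included a pair 76.9 and 75.9 kb downstream of the start that ranked 1302 and 1460 in the p300 list. The 4 p300-alone sites lay 271 kb and 82.4 kb downstream and in an intron 7.16 and 5.78 kb from the start. All 4 had LP RUNX1 and a Phase 1 p300 peak, and 3 of them, all but the last, had a Phase 1 Med12 peak. Tcf7, which encodes the T-cell factor TCF-1, had 5 shared sites, of which the strongest was 35.6 kb upstream (p300 rank 2589, Med12 rank 3159), and 1 weak p300-alone site 28.0 kb upstream without RUNX1.

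At Notch3, a Notch receptor, 2 sites were shared. A Med12-alone site (rank 16021) lay in an intron 757 bp from the start without RUNX1, CTCF or a Phase 1 peak of either factor. A p300-alone site (rank 24571) lay 3.13 kb upstream with RUNX1 and with both Phase 1 factors. Il7r, the interleukin-7 receptor, had 4 shared sites, a Med12-alone site 3.86 kb upstream that had both factors in Phase 1, and p300-alone sites 27.3 and 42.2 kb upstream that had neither. Ebf1 had 4 shared sites, including its promoter, and 1 p300-alone site in an intron 36.8 kb from the start. Ebf1 is the factor that this line lacks.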

How the data were processed

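ChIP-seq had 2 replicates for each factor. The authors aligned reads to mm10 with Bowtie 1.1.1, called peaks with HOMER in factor style against a control, kept peaks reproducible between replicates by IDR, and annotated them. The deposited value is a normalized peak score per peak, with replicates combined, none under 15. The score was used only to rank or filter within a list. Of the 17 lists, 9 were used. Read depth was not used here, and the lengths of the lists may differ with depth or enrichment as well as with the number of bound sites.

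Overlap meant at least 1 bp. Shares carry 95% Wilson intervals, and 15 two-sided Fisher's exact tests on peak counts were adjusted by the Benjamini-Hochberg method. Matching on score used Mantel-Haenszel odds ratios over 5 score classes. Strings were read from GRCm38 in 200 bp windows. The build was checked on the 14723 promoter peaks whose gene was found in its annotation. At 13444 of them the listed distance to the start was within 1 kb of that computed from the gene's start. No peak ran past a chromosome end. The gene name column was empty, so symbols came from RefSeq through the nearest transcript accession (36115 of 36182 p300 and 29949 of 30020 Med12 peaks). Tools were Python 3.11.15, numpy 2.4.6, pandas 2.3.3, scipy 1.17.1, pysam 0.24.0 and matplotlib 3.10.9. The overlap and test steps were tested on simulated data. Named single peaks were the 3 best of each class, separate ones outside promoters, with simple repeats, satellites and rRNA left out, and 9 loci were read peak by peak. One of the named shared peaks is not reported here. In the gene lists up to 4 members with most peaks were described, with some others chosen after their values were seen. The classes, gene lists, strings and tests were chosen with earlier results of these data known.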

Additional observations from a re-analysis of the deposited data

How the results depend on the processing

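No paired analysis was possible because both replicates of a factor were combined in 1 list, and for the same reason no replicate could be left out. Under the alternatives 133 recomputed values kept their direction and their side of the threshold, and the others follow. The share of p300 peaks with Med12 was 74.5% when centres had to lie within 100 bp, 86.9% with lists of equal length and 72.4% without promoters. The share of Med12 peaks with p300 was 89.7% and 94.5% with centres within 100 and 500 bp, 95.2% at a minimum score of 30, 86.9% with lists of equal length and 92.0% without promoters. With lists of equal length the odds ratios between p300 alone and Med12 alone were 1.15 for promoters, 0.635 for sites over 10 kb from a start, 0.986 for the RUNX string and 0.916 for CTCF peaks. The promoter odds ratio of shared against Med12-alone peaks was 1.02 with centres within 100 bp and 0.972 matched on score. The RUNX string odds ratio was 1.04 for sites alone in both stages.

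Between the separate classes the CTCF peak odds ratio was 0.879 with centres within 500 bp, 0.919 in 200-bp windows, 1.1 for sites alone in both stages and 0.882 (past the threshold no longer) by the chi-square test with Yates correction. Shared against p300 alone it was 0.974 with centres within 100 bp, 1.38 at a minimum score of 30, 0.844 without promoters, 0.911 in 200-bp windows and 0.704 for sites alone in both stages. Shared against Med12 alone it was 0.831 with centres within 100 bp, 0.666 without promoters, 0.806 matched on score, 0.840 in 200-bp windows, 0.785 for sites alone in both stages and 0.871 without peaks that had the other factor within 1 kb. The CTCF string odds ratio was 1.375 with centres within 100 bp, 0.689 at a minimum score of 30, 1.40 for sites alone in both stages and 0.904 without peaks near the other factor. The alternative without peaks within 1 kb of the other factor was chosen after seeing the data. The cause of these shifts was not tested. The separate classes lay mostly in the lowest score class, read depth was not used here, and all intervals cover counting error only.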
